A study of Homo sapiens with 25 samples.

Results

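Jurkat cells, a line of human T-cell leukaemia, were grown in medium with 25% histidine, and RNA was collected on day 6 and on day 3. The comparison takes the 3 libraries labelled 25% histidine and day 6 and the 3 labelled 25% histidine and day 3, which are 6 of the 25 libraries of the series, chosen by these labels alone. Day 6 at 100% histidine (3 libraries) against day 3 at 100% (2 libraries), and day 6 at 12.5% (2 libraries) against day 3 at 12.5% (3 libraries), show how a day difference at 25% differs from that at another level. No source used here says what the percentages are relative to or whether the medium was renewed between the days. The labels do not state that replicates came from different cultures; a p-value here therefore reflects the spread among libraries, and that spread may be technical alone.

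Histidine is an amino acid that human cells take up from the medium. When an amino acid runs short, uncharged tRNA activates the kinase GCN2, translation slows and the transcription factor ATF4 raises transcripts for amino acid synthesis, transport and tRNA charging, while reduced signalling by the kinase mTORC1 lowers the making of ribosomes and nucleotides. In dividing cells E2F factors drive transcripts of DNA replication before and during S phase, and a later wave with FOXM1 and MYBL2 drives those of mitosis.

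The deposited values are normalized counts, whose totals lay between 18.4 and 20.1 mega-counts on day 6 and 19.3 and 19.9 on day 3, so they do not give the depth of a library. A value of at least 10 was reached by 17932 to 18723 genes on day 6 and by 17866 to 18229 on day 3. The T-cell label held in every library: the 14 markers of T cells and of Jurkat cells, among them CD3E, CD3D, LCK, TRAC and TAL1, summed to 75415 to 78963 on day 6 and 81537 to 84224 on day 3. Replicate 2 of day 6 stood apart. Its 17 heart and skeletal muscle transcripts, led by the myosin MYH7, summed to 62129, against 663 and 668 in the other day 6 libraries and 495 to 533 on day 3. Erythroid transcripts (7 in the table) summed to 4959.5 and 4101 in replicates 1 and 2 of day 6 and 313 in replicate 3, against 230.5 to 376 on day 3. Sums of fibroblast and matrix transcripts overlapped between the days (13210.4 to 25155 on day 6 and 14454 to 21635 on day 3), as did those of epithelial and liver transcripts (402 to 429 on day 6 and 428 to 518 on day 3) and myeloid transcripts (829 to 869 on day 6 and 838 to 916 on day 3), of which MPO was listed at 0 in all 6. Neuron and endocrine transcripts summed to 828 to 1822 on day 6 and 718 to 775 on day 3, with replicate 2 the highest, and B-cell transcripts to 372 to 419 on day 6 and 594 to 712 on day 3. Of these lists of other cell types, only THY1 of the fibroblast list and CD79A of the B-cell list passed the test, both lower on day 6. CD79A, the Ig-alpha chain of the B-cell receptor, had 308, 359 and 352 normalized counts in the day 6 libraries, against 645, 531 and 655 in the day 3 libraries (log2 difference -0.84, SE 0.12, adjusted p = 2.23e-05). The part of these transcripts in the results was not tested. Each count of list members that passed at 25% is also given without replicate 2 of day 6 where that changes it.

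**Figure D1:**
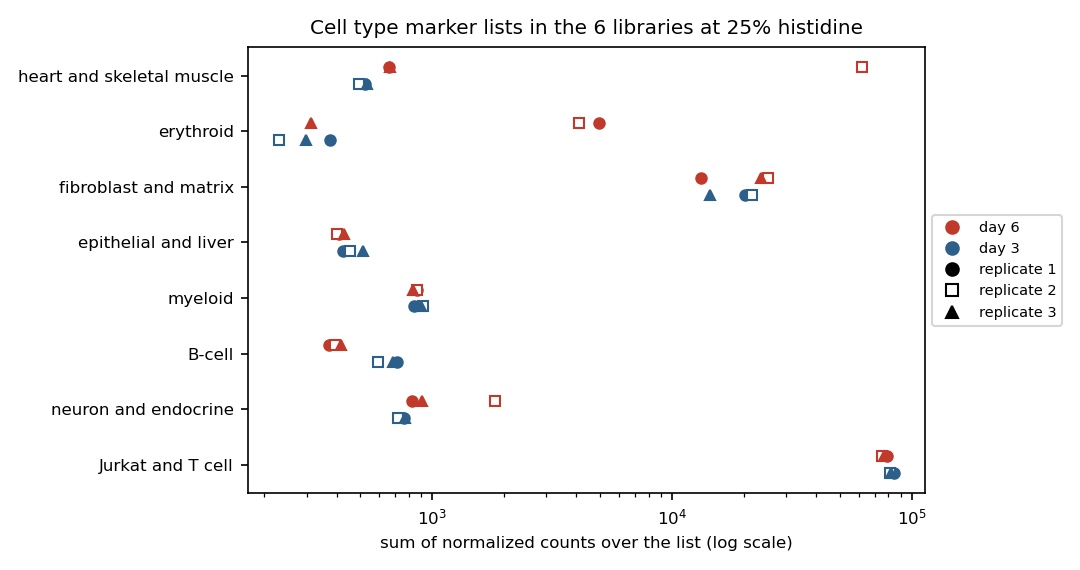
Summed normalized counts (log axis) of each cell type marker list in the 6 libraries at 25% histidine, day 6 above day 3 in each row, with the symbol giving the replicate. The muscle sum of replicate 2 of day 6 (62129) stands far above the others, while the T-cell and Jurkat sums of all 6 libraries lie close together.

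On day 6 against day 3 at 25% histidine, most genes of DNA replication, ribosomal proteins and nucleotide and one-carbon synthesis fell, as did 12 of 30 of glycolysis and hypoxia, and most genes of mitosis rose. For ribosomal proteins and nucleotide synthesis the share that fell depended on the library left out, and for ribosomal proteins it was no longer most without replicate 1 of day 3. Of 22994 genes tested, 2711 (11.8%) passed limma's moderated test at a Benjamini-Hochberg adjusted p under 0.05, 1159 of them higher on day 6 (5.04%) and 1552 lower (6.75%). The changes were small: the median size over the genes that passed was 1.34-fold, and 114 rose and 82 fell by at least 1 on the log2 scale. The median log2 difference over all genes tested was 0.00. Without replicate 2 of day 6, 2227 genes passed, 1950 of them among the 2711 and in the same direction. Without replicate 1 of day 3 the count was 1738, and with the fit restricted to the groups compared 1569.

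**Figure D2:**
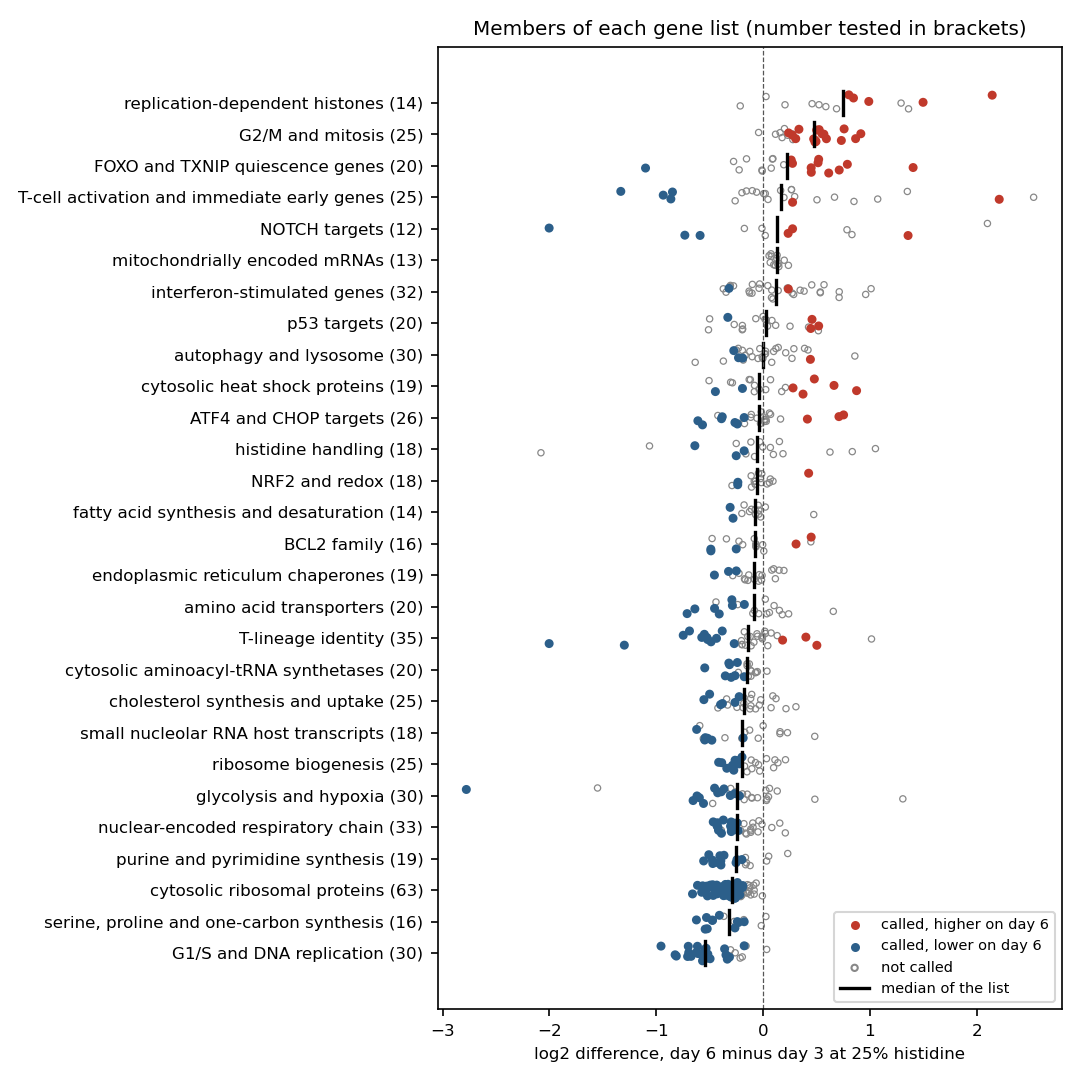
Log2 difference, day 6 minus day 3 at 25% histidine, for each tested member of the 28 gene lists, ordered by the list median (black bar), with filled points for members that passed limma's test. Replication genes lie lowest, with a median of -0.54, and histone and mitosis genes highest, with medians of 0.75 and 0.47.

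Most DNA replication genes fell. Of the 30 genes of G1/S and DNA replication, all tested, 24 fell and 0 rose, against 6.75% and 5.04% of all genes tested, and the median log2 difference was -0.54, against 0.00 over all genes. MCM6 (chr2:135839626-135876426 in GRCh38), a subunit of the helicase that unwinds DNA at replication forks, had 3960.0, 4326 and 3829 normalized counts in the day 6 libraries, against 6557, 6341 and 6414 in the day 3 libraries. It was 1.6-fold lower on day 6 (log2 difference -0.67, SE 0.048, adjusted p = 1.27e-09), with every day 6 library below every day 3 library. The helicase subunits MCM3 (log2 -0.61, adjusted p = 1.36e-08), MCM7 (log2 -0.56, adjusted p = 3.31e-08) and MCM5 (log2 -0.70, adjusted p = 4.05e-08) fell in the same way by limma's test, without overlap between the days. PCNA (chr20:5114953-5126626), the sliding clamp of the DNA polymerases, had 4674, 3793 and 4509.8 normalized counts in the day 6 libraries, against 7508, 6653 and 6956 in the day 3 libraries (log2 difference -0.71, SE 0.068, adjusted p = 1e-07). CDC6, which loads the helicase onto origins, averaged 1387 ± 61.6 on day 6 and 2456 ± 122 on day 3 (SD, n = 3 each; log2 difference -0.82, SE 0.099, adjusted p = 3.42e-06). Among the regulators, E2F1, a transcription factor of this set, fell (log2 -0.63, adjusted p = 1.2e-05), and so did CCNE1, the cyclin E that drives entry into S phase (log2 -0.96, adjusted p = 0.000329). The 6 members that did not pass were CCNE2, E2F8, GINS1, CLSPN, POLE2 and RRM2. RRM2, a subunit of ribonucleotide reductase, varied widely, with 641, 1019 and 858 normalized counts in the day 6 libraries, against 2129.8, 738 and 332 in the day 3 libraries. Since whole cultures were measured, fewer cells in a phase and less RNA per cell cannot be told apart here or in the lists that follow. The count was also 24 of 30 without replicate 2 of day 6.

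Most mitosis genes moved the other way. Of the 25 genes of G2/M and mitosis, 17 rose and 0 fell, against 5.04% and 6.75% of all genes tested. Their median log2 difference was 0.47. In the fit without replicate 2 of day 6, 15 rose. CENPF (chr1:214603195-214664588), a protein of the kinetochore, had 6672, 7440.4 and 6399.8 normalized counts in the day 6 libraries, against 3588, 3986 and 3663 in the day 3 libraries (log2 difference 0.87, SE 0.071, adjusted p = 1.36e-08). KIF20A (chr5:138178719-138187715), a kinesin needed for the last step of cell division, had 1835, 1882 and 1659 normalized counts in the day 6 libraries, against 878, 1008 and 964 in the day 3 libraries. It was 1.89-fold higher on day 6 (log2 difference 0.92, SE 0.089, adjusted p = 1.16e-07), with no overlap between the days. PLK1, the polo-like kinase of mitotic entry, averaged 5012 ± 359 on day 6 and 3319 ± 145 on day 3 (SD, n = 3 each; log2 difference 0.59, SE 0.072, adjusted p = 3.98e-06). TOP2A, the topoisomerase that untangles sister chromatids, had 13002, 13268 and 11892 normalized counts in the day 6 libraries, against 8994, 9018 and 9026 in the day 3 libraries (log2 difference 0.50, SE 0.054, adjusted p = 7.99e-07). MKI67, which coats mitotic chromosomes and codes the Ki-67 antigen, rose (log2 0.57, adjusted p = 3.15e-05), as did cyclin B1, CCNB1 (log2 0.73, adjusted p = 0.000122), and the spindle kinase AURKA (log2 0.50, adjusted p = 9.06e-05). The 8 members that did not pass were CDK1, CCNA2, AURKB, BUB1B, KIF11, CDC25C, BIRC5 and TTK. CDK1, the kinase that cyclin B activates, stood at log2 0.23 (adjusted p = 0.083), and TTK, a spindle checkpoint kinase, at -0.04 (adjusted p = 0.886).

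**Figure D3:**
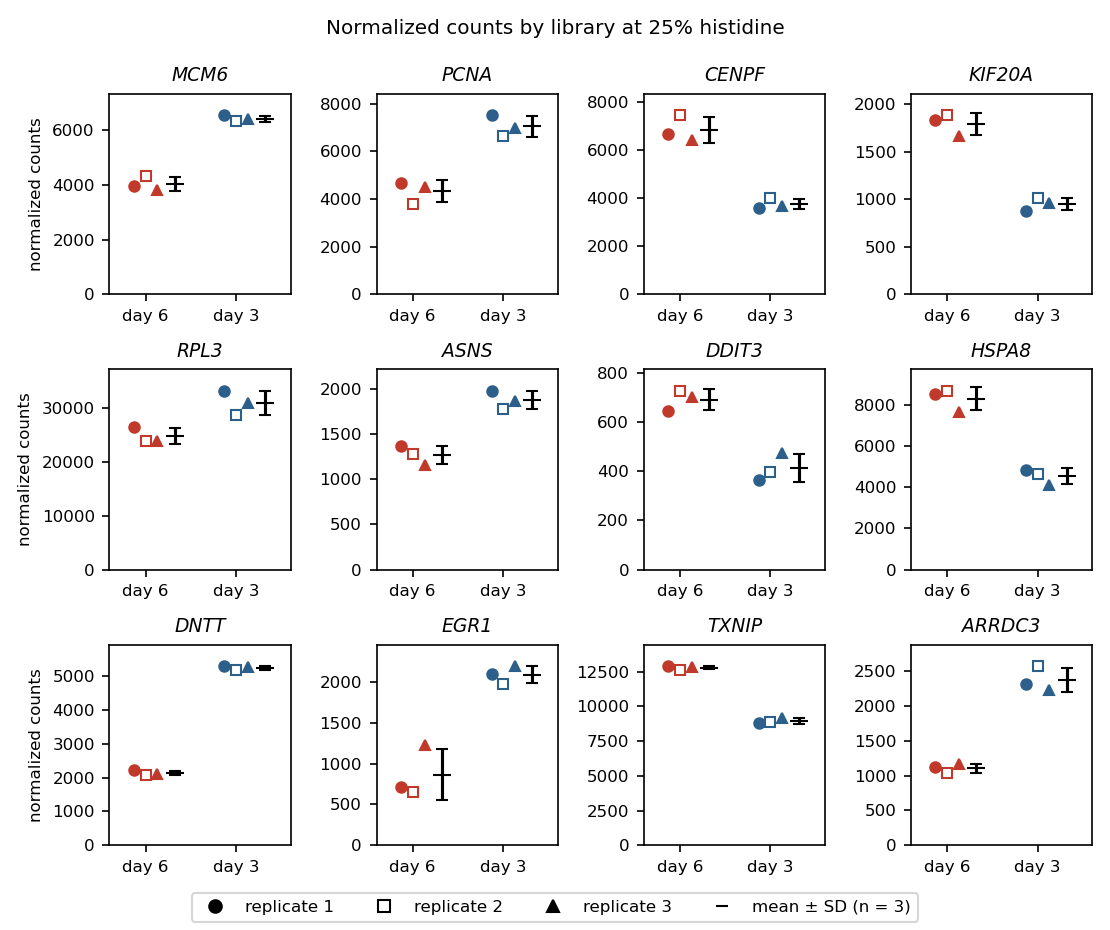
Normalized counts of 12 genes in each library at 25% histidine, day 6 left of day 3, with symbols for replicates (open squares are replicate 2) and a bar for the mean ± SD (n = 3). In each panel every day 6 library lies on 1 side of every day 3 library, below for MCM6, PCNA, RPL3, ASNS, DNTT, EGR1 and ARRDC3 and above for CENPF, KIF20A, DDIT3, HSPA8 and TXNIP.

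The median day difference of the replication genes was below 0 at each histidine level measured on both days, whereas that of the mitosis genes was above 0 at 25% alone. The median log2 difference between day 6 and day 3 over the 30 replication genes was -0.61 at 12.5% histidine, -0.54 at 25%, -0.32 at 50% and -0.37 at 100%. Over the 25 mitosis genes it was -0.17 at 12.5%, 0.47 at 25%, -0.53 at 50% and -0.40 at 100%. Tested as a difference between day effects, that at 25% minus that at 100%, 22 of the 25 mitosis genes were higher and 0 lower, against 2.71% and 2.01% of all genes tested. For KIF20A this difference was 1.30, SE 0.13, adjusted p = 3.99e-07 and for PLK1 0.99, SE 0.11, adjusted p = 1.14e-06 by limma. Against the day effect at 12.5%, 14 of 25 were higher, against 0.37% of all genes, with 0.88, SE 0.13, adjusted p = 0.00168 for KIF20A and 0.87, SE 0.11, adjusted p = 0.000156 for PLK1. Library numbers differ between these groups. The library number is the position of a library in the sample order, and the labels do not tie it to a batch. With this number modulo 8 as a term, the fit has fewer degrees of freedom left for the spread. Whether lost calls come from that or from a batch was not tested. With the term 0 of the 25 passed against 12.5% (median 0.58, as against 0.57 without the term, and all 25 above 0) and 19 against 100%. Of the replication genes 7 of 30 fell further at 25% than at 100%, MCM6 among them (-0.34, SE 0.072, adjusted p = 0.00431), and 0 with that term; 0 differed from 12.5% in either direction. The levels behind this differed by day: KIF20A averaged 950.0 ± 66.2 at 25% on day 3 (SD, n = 3), below its day 3 averages at 12.5%, 50% and 100%, which were 1557, 1202 and 1148.

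**Figure D4:**
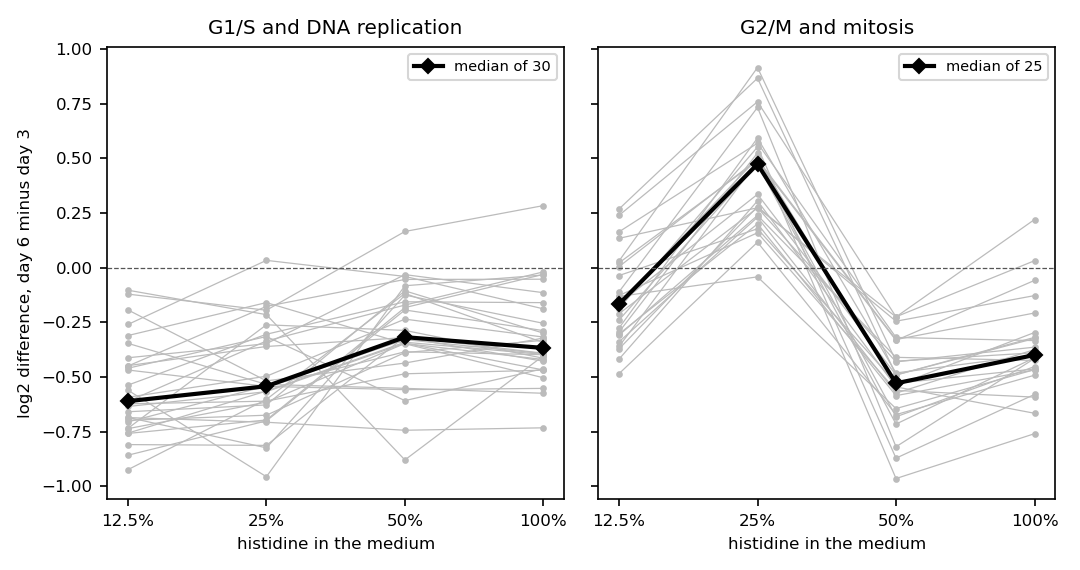
Log2 difference, day 6 minus day 3, at each histidine level measured on both days, for the 30 replication genes (left) and the 25 mitosis genes (right), with a grey line per gene and the median in black. The median of the mitosis genes is above 0 at 25% alone of the 4 levels (0.47), while that of the replication genes is below 0 at all 4.

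The promoters of these 2 sets carry different short motifs. The windows are those of RefSeq (GRCh38.p14), 250 bases before to 50 after the gene's start in RefSeq. They exist for 25 of the 30 replication genes, 20 of the 25 mitosis genes and 13597 of the genes tested. That start can differ from the GENCODE gene bounds printed with the genes. The windows of KIF20A and, further below, HSPA8 lie inside those bounds. The 2 E2F sites TTTGGCGC and TTTCCCGC, read on both strands, were in 6 and 9 of the 25 replication windows, 1 and 0 of the 20 mitosis windows, and 0.971% and 2.4% of all windows. The cell cycle homology region TTTGAA, a motif of late cell cycle genes that was added to the search after the values had been seen, was in 12 of 20 mitosis windows, 1 of 25 replication windows and 10.6% of all. The box CCAAT, bound by NFY, was in 17 of 20 and 16 of 25, against 36.1% of all. A match describes the letters of the window and shows no binding. Windows of the 2 replication genes and the 3 mitosis genes with the smallest p are shown, 5′ to 3′ on the gene's strand. Capitals mark the E2F sites and CCAAT in the replication windows and TTTGAA and CCAAT in the mitosis windows, on either strand. They lie at chr2:135876394-135876693, minus strand (MCM6), chr6:52284693-52284992, minus strand (MCM3), chr1:214602945-214603244, plus strand (CENPF), chr5:138178862-138179161, plus strand (KIF20A) and chr17:40417847-40418146, minus strand (TOP2A).
MCM6: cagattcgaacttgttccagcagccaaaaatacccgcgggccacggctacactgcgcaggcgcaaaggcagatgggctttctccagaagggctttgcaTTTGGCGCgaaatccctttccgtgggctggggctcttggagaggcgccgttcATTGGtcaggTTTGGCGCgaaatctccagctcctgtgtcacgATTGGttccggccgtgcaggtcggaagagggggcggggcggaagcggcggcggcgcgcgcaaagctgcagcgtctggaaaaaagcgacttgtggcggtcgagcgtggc
MCM3: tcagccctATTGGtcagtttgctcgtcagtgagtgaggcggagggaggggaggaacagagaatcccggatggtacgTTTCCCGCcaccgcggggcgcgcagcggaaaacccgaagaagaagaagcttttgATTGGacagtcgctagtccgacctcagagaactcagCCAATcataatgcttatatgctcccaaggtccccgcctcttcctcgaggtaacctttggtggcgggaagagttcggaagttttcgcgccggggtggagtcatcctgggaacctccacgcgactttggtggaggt
CENPF: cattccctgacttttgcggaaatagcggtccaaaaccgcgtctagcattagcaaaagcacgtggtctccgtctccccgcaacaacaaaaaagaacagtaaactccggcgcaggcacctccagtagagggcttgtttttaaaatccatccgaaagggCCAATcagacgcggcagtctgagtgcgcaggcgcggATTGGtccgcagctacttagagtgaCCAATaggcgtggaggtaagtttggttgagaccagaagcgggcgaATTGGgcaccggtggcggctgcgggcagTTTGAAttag
KIF20A: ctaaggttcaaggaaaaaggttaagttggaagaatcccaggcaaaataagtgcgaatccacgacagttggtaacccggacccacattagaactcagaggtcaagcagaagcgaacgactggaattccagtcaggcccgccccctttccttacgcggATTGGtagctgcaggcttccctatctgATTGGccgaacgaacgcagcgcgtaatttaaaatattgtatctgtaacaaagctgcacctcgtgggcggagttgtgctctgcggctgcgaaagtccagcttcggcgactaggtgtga
TOP2A: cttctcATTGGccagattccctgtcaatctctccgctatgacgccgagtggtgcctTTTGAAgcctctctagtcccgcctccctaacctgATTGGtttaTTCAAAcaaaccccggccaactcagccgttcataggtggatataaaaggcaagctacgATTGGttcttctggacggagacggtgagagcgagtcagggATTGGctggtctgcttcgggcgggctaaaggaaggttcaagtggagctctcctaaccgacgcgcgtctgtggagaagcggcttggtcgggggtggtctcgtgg
MCM6 holds TTTGGCGC 2 times, MCM3 holds TTTCCCGC 1 time, CENPF holds TTTGAA 1 time and TOP2A 2 times, and KIF20A holds CCAAT but no TTTGAA in this window.

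Some histone genes of the replication-dependent clusters rose. Of 18 on the list, 14 passed the filter on low values; 5 rose, 0 fell and 9 did not pass, against 5.04% higher and 6.75% lower over all genes tested, with a median of 0.75. H2BC5, a histone H2B gene on chromosome 6, had 113, 127 and 173 normalized counts in the day 6 libraries, against 60.3, 57.5 and 30.1 in the day 3 libraries (log2 difference 1.5, SE 0.28, adjusted p = 0.000644). H2AC6, a histone H2A gene, averaged 213 ± 48.9 on day 6 and 105 ± 7.36 on day 3 (SD, n = 3 each; log2 difference 0.99, SE 0.24, adjusted p = 0.00558). The others that passed were H3C10, H1-2 and H2BC12. All of these values are low, histone genes are near-identical copies among which reads can be shared, and whether the libraries held transcripts without a poly(A) tail is not stated in the labels. Without replicate 1 of day 3 the count was 2, and without replicate 3 of day 6 it was 3.

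Many transcripts of the protein synthesis machinery and of biosynthesis fell, each by a small amount. All 63 ribosomal protein genes had a negative log2 difference and 45 of them fell, with a median of -0.29. Over all genes tested 6.75% fell. The count was 33 without replicate 2 of day 6, 28 without replicate 1 of day 3, and 40 and 41 under total-sum scaling and quantile normalization. RPL3, a protein of the large subunit, had 26434, 23949.6 and 23962 normalized counts in the day 6 libraries, against 33205, 28742 and 30862 in the day 3 libraries (log2 difference -0.32, SE 0.055, adjusted p = 0.000264). RPL10A (log2 -0.53, adjusted p = 1.2e-06) and RPS3 of the small subunit (log2 -0.52, adjusted p = 2.95e-05) fell further. Ribosome biogenesis factors fell in 12 of 25, led by NOP56, a core protein of box C/D particles (log2 -0.42, adjusted p = 1.3e-05), with 7 without replicate 1 of day 3 or without replicate 3 of day 6. Purine and pyrimidine synthesis fell in 12 of 19 (median -0.25), or in 10 without replicate 2 of day 6, among them IMPDH2, which controls the branch to guanine nucleotides, with 2024, 2101 and 1953 normalized counts in the day 6 libraries, against 2739, 2470.2 and 2796 in the day 3 libraries (log2 difference -0.40, SE 0.056, adjusted p = 3.09e-05). ATIC, which closes the purine ring, was at -0.40 (adjusted p = 2.42e-05). ADSL and CAD did not pass by limma without replicate 1 of day 3 (adjusted p = 0.0907 and 0.104) or replicate 3 of day 6 (0.0545 and 0.0915). The same held for HPRT1 (0.0994 and 0.0867) and PRPS1 (0.152 and 0.113). Serine, proline and one-carbon synthesis fell in 11 of 16 (median -0.32): SHMT2, the mitochondrial serine hydroxymethyltransferase, averaged 7223 ± 269 on day 6 and 10049.6 ± 829 on day 3 (SD, n = 3 each; log2 difference -0.47, SE 0.061, adjusted p = 9.51e-06), and MTHFD1L, a mitochondrial folate enzyme, was at -0.54 (adjusted p = 1.42e-06). None of the members of these 4 lists rose by limma's test. The medians were below 0 at 100% and 12.5% histidine too. They were -0.19 and -0.37 for ribosomal proteins and -0.24 and -0.27 for ribosome biogenesis. Purine and pyrimidine synthesis had -0.20 and -0.36, and serine, proline and one-carbon synthesis -0.10 and -0.37. Against the day effect at 100%, 2 ribosomal protein, 1 biogenesis and 5 serine, proline and one-carbon genes were lower, and 3 biogenesis genes higher. Against 12.5%, 0 passed, which does not show equal day effects.

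Energy metabolism showed the same direction. Glycolysis and hypoxia genes fell in 12 of 30 and rose in 0 (median -0.24), against 6.75% and 5.04% of all genes tested. The other 18 did not pass, and 8 of the 30 had a positive log2 difference. ENO1, the glycolytic enolase, was at log2 -0.60 (adjusted p = 5.02e-08). TPI1, triosephosphate isomerase, was at -0.45 (adjusted p = 1.09e-05) and LDHA, which makes lactate, at -0.56 (adjusted p = 6.95e-05). GAPDH, often used as a reference transcript, had 33991, 34879.7 and 31524 normalized counts in the day 6 libraries, against 46250.5, 41229 and 44259.6 in the day 3 libraries (log2 difference -0.39, SE 0.051, adjusted p = 9.51e-06), but did not pass under quantile normalization, where its adjusted p was 0.189. Nuclear-encoded respiratory chain subunits fell in 16 of 33 (median -0.24), for example ATP5F1B of the ATP synthase (log2 -0.30, adjusted p = 0.00014), but in 6 without replicate 1 of day 3 and in 8 without replicate 3 of day 6. None of the 13 mRNAs encoded by the mitochondrial genome passed; their median was 0.13, and -0.15 without replicate 2 of day 6. The share of values from mitochondrial transcripts was 2.75% to 5.4% on day 6 and 2.82% to 4.56% on day 3. At 100% and 12.5% histidine the median day difference of the nuclear-encoded subunits was also below 0 (-0.22 and -0.40). That of glycolysis and hypoxia genes was -0.17 and -0.26. Against the day effect at 100%, 1 nuclear-encoded subunit was higher and 0 lower, and 1 glycolysis and hypoxia gene was higher and 3 lower. Against 12.5%, 0 of either list passed, which does not show equal day effects.

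Transcripts of the amino acid response split. Among 26 targets of ATF4 and CHOP, 7 fell and 3 rose (median -0.04), against 6.75% and 5.04% of all genes tested. DDIT3 (chr12:57516588-57521737), which codes the stress factor CHOP, rose, with 646, 727 and 701 normalized counts in the day 6 libraries, against 364, 397 and 475 in the day 3 libraries (log2 difference 0.75, SE 0.11, adjusted p = 4.1e-05). KLHL24, a substrate adaptor of a ubiquitin ligase (log2 0.71, adjusted p = 3.49e-06), and CHAC1, which breaks down glutathione (log2 0.41, adjusted p = 0.000931), also rose, each with day 6 libraries above all day 3 libraries. ASNS (chr7:97852118-97872542), the asparagine synthetase, fell, with 1362, 1274 and 1159 normalized counts in the day 6 libraries, against 1977, 1777 and 1863 in the day 3 libraries (log2 difference -0.57, SE 0.084, adjusted p = 4.6e-05). TRIB3, a pseudokinase that ATF4 induces, had 16494, 16485 and 14945 normalized counts in the day 6 libraries, against 21309.5, 19486 and 21993 in the day 3 libraries (log2 difference -0.39, SE 0.078, adjusted p = 0.00145). ATF3, a transcription factor of the same response, fell (log2 -0.61, adjusted p = 0.00203), as did the serine synthesis enzymes PSAT1 (log2 -0.26, adjusted p = 0.000734) and PHGDH (log2 -0.24, adjusted p = 0.0116). ATF4 itself was at -0.18 (adjusted p = 0.0142); it did not pass without replicate 1 of day 3 (adjusted p = 0.104), without replicate 3 of day 6 (0.0726) or in 3 other fits, among them quantile normalization (0.0797). SESN2, a leucine sensor induced by ATF4, was at -0.11 (adjusted p = 0.292).

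The day effect on TRIB3 and DDIT3 depended on the histidine level. At 100% histidine TRIB3 averaged 12761 ± 2084 on day 6 and 4383 ± 318 on day 3 (SD, n = 3 and 2), a log2 difference of 1.53 (SE 0.087), so that the day effect at 25% minus that at 100% was -1.92, SE 0.12, adjusted p = 1.85e-10. DDIT3 averaged 1161 ± 172 on day 6 and 326 ± 6.48 on day 3 at 100% (n = 3 and 2), and the difference of day effects was -1.06, SE 0.16, adjusted p = 0.000148. Against 12.5%, where DDIT3 averaged 477 ± 4.86 on day 6 and 538 ± 35.1 on day 3 (n = 2 and 3), it was 0.92, SE 0.16, adjusted p = 0.0066; without replicate 2 of 12.5% on day 6 the adjusted p was 0.0515. With the library number modulo 8 as a term it was 0.99 with an adjusted p of 0.229. For ASNS the difference of day effects from 100% was -0.71, SE 0.13, adjusted p = 0.000763.

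The enzymes that charge tRNAs and the transporters of amino acids fell where they passed. Of 20 cytosolic aminoacyl-tRNA synthetases, 8 fell and 0 rose (median -0.15). The count was 9 without replicate 2 of day 6. WARS1, for tryptophan, had 2666, 2796 and 2833 normalized counts in the day 6 libraries, against 4200.2, 3887 and 4028 in the day 3 libraries (log2 difference -0.55, SE 0.066, adjusted p = 3.76e-06), and YARS1, for tyrosine, was at -0.35 (adjusted p = 2.23e-05). HARS1, for histidine, averaged 1689 ± 95.6 on day 6 and 1826 ± 23 on day 3 (SD, n = 3 each; log2 difference -0.11, SE 0.067, adjusted p = 0.33); its libraries did not overlap, but the difference did not pass. Of 20 amino acid transporters tested, 7 fell and 0 rose, against 6.75% and 5.04% of all genes tested. SLC1A4, which carries neutral amino acids, averaged 2291 ± 151 on day 6 and 3135 ± 89.7 on day 3 (SD, n = 3 each; log2 difference -0.45, SE 0.056, adjusted p = 4.34e-06). SLC1A5, a glutamine carrier (log2 -0.29, adjusted p = 3.85e-05), SLC43A2, which carries large neutral amino acids (log2 -0.71, adjusted p = 0.00143), and SLC7A1, which carries cationic amino acids (log2 -0.29, adjusted p = 0.00192), fell too. SLC7A11, the cystine carrier, was at 0.06 (adjusted p = 0.787). Of 18 tested genes of histidine handling, 3 fell and 0 rose, against 6.75% and 5.04% of all genes tested. They were SLC38A5, an amino acid carrier (log2 -0.64), CNDP2, a dipeptidase (log2 -0.18), and DPH1, of the pathway that modifies a histidine of elongation factor eEF2 (log2 -0.25). Without replicate 2 of day 6, 2 fell. Without replicate 3 of day 3 or replicate 3 of day 6, 1 fell: the adjusted p of CNDP2 was then 0.0713 and 0.0846, and that of DPH1 0.144 and 0.172.

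A few cytosolic chaperones rose, while HSPA1A, HSPA1B, HSPA6 and DNAJB1 did not pass. Of 19 cytosolic heat shock genes, 5 rose and 2 fell (median -0.04), against 5.04% and 6.75% of all genes tested. Only 3 rose without replicate 2 of day 6. HSPA8 (chr11:123057489-123063230), the constitutive HSP70, had 8541, 8675 and 7664 normalized counts in the day 6 libraries, against 4852, 4619 and 4101 in the day 3 libraries. It was 1.83-fold higher on day 6 (log2 difference 0.88, SE 0.086, adjusted p = 3.99e-07), with no overlap. DNAJA1, an HSP40 that works with HSPA8, averaged 3619.9 ± 161 on day 6 and 2284 ± 107 on day 3 (SD, n = 3 each; log2 difference 0.66, SE 0.077, adjusted p = 2.01e-06). BAG3, a co-chaperone of HSP70, was at 0.37 (adjusted p = 0.00686) and did not pass without replicate 2 of day 6 (log2 0.24, adjusted p = 0.0727). HSPA1B, the inducible HSP70, had 311, 242 and 323 normalized counts in the day 6 libraries, against 409.9, 193 and 199 in the day 3 libraries, and DNAJB1 averaged 2254 ± 125 on day 6 and 2466 ± 130.1 on day 3; neither passed (adjusted p = 0.765 and 0.38). HSF1, the heat shock transcription factor, fell (log2 -0.45, adjusted p = 7.09e-06), and so did HSPD1, the mitochondrial HSP60 (log2 -0.19, adjusted p = 0.016). HSPD1 did not pass in 6 other fits, among them those without replicate 1 or 2 of day 3 or replicate 3 of day 6 (adjusted p = 0.087, 0.0574 and 0.0968) and quantile normalization (log2 -0.0955, adjusted p = 0.146). DNAJB4, an HSP40 outside the list, had 205, 215 and 193 normalized counts in the day 6 libraries, against 108, 57.7 and 48.2 in the day 3 libraries (log2 difference 1.59, SE 0.25, adjusted p = 8.86e-05).

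Heat shock elements, here runs of GAA and TTC units that alternate 3 times with any pair of bases between them, were in 4 of the 18 RefSeq windows of the list, on either strand, against 0.353% of all windows. Those of the 2 heat shock genes with the smallest p are shown with this element in capitals, at chr11:123062087-123062386, minus strand (HSPA8) and chr9:33025023-33025322, plus strand (DNAJA1).
HSPA8: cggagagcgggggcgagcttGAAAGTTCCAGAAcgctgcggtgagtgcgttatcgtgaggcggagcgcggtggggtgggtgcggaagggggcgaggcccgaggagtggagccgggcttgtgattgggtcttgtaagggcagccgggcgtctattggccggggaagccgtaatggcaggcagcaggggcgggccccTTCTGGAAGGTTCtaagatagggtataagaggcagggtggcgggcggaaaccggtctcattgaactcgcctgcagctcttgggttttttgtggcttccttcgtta
DNAJA1: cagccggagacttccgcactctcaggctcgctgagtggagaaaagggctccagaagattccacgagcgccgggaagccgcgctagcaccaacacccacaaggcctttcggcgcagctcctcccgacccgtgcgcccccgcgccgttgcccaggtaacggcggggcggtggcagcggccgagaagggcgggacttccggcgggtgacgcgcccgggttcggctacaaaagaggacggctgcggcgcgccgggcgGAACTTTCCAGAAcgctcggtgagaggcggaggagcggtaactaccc
HSPA8 holds the element 2 times and DNAJA1 1 time.

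The day effect on many heat shock, sterol and endoplasmic reticulum genes differed between 25% and 100% histidine. Of the 19 heat shock genes 16 had a higher day effect at 25% and 1 a lower one, of the 25 cholesterol genes 13 and 0, and of the 19 endoplasmic reticulum chaperones 0 and 17. Over all genes tested 2.71% were higher and 2.01% lower. The median day difference over the heat shock genes was -0.04 at 25% and -0.90 at 100%, over the cholesterol genes -0.18 and -0.86, and over the chaperones -0.08 and 0.97. At 100% the day 3 level of DNAJB1 was high, 2596 ± 421 on day 6 and 24182 ± 369 on day 3 (SD, n = 3 and 2), and the difference of day effects was 3.10, SE 0.13, adjusted p = 7.19e-15. HMGCS1, the HMG-CoA synthase of cholesterol synthesis, averaged 1079.8 ± 29.8 on day 6 and 1261 ± 32.9 on day 3 at 25%, against 2741 ± 382 on day 6 and 10945 ± 588 on day 3 at 100% (SD), and the difference of day effects was 1.78, SE 0.1, adjusted p = 2.96e-11. Within 25% its day difference was -0.22 (adjusted p = 0.0365) and missed the threshold without any 1 of the 6 libraries, with adjusted p from 0.0502 to 0.125. At 25%, 6 cholesterol genes fell and 0 rose, against 6.75% and 5.04% of all genes tested. Without replicate 2 of day 6, 5 fell and 1 rose, and 3 fell without replicate 1 or without replicate 3 of day 3. FDPS, the farnesyl diphosphate synthase, averaged 2116 ± 21.5 on day 6 and 2759.6 ± 207 on day 3 (SD, n = 3 each; log2 difference -0.38, SE 0.074, adjusted p = 0.000952). MANF, a secreted protein of the endoplasmic reticulum stress response, averaged 1479 ± 187 on day 6 and 1509 ± 70.0 on day 3 at 25% and 4964 ± 856 on day 6 and 1821 ± 86.4 on day 3 at 100% (difference of day effects -1.47, SE 0.15, adjusted p = 3.44e-07). In the whole comparison with 100%, 1086 genes differed (4.72%), 624 with a higher and 462 with a lower day effect at 25%; the split was 417 and 849 under total-sum scaling, which moved the median of all genes to -0.10, and 498 and 666 under quantile normalization. Without replicate 3 of 100% on day 3 the count was 654.

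**Figure D5:**
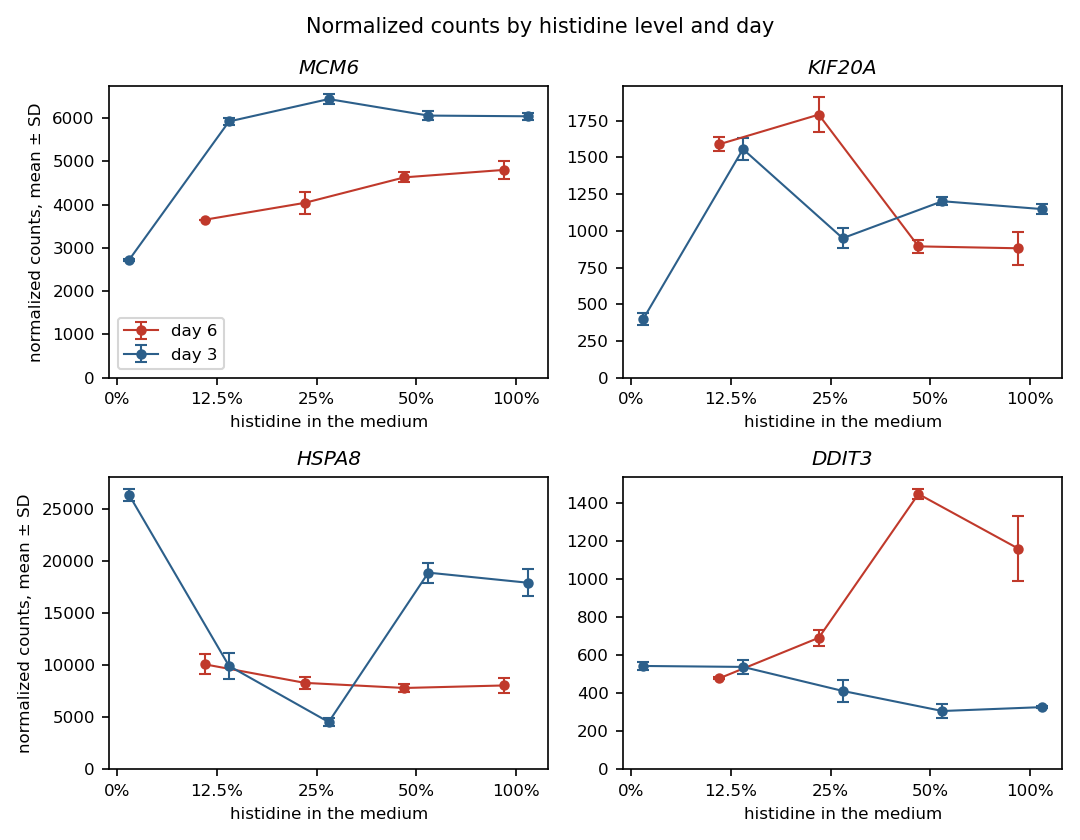
Normalized counts (mean ± SD) of MCM6, KIF20A, HSPA8 and DDIT3 by histidine level, with day 6 in red and day 3 in blue (n = 3, except n = 2 at 100% on day 3 and at 12.5% on day 6; 0% has day 3 only). At 25% KIF20A, HSPA8 and DDIT3 are higher on day 6 and MCM6 lower, whereas at 100% KIF20A and HSPA8 are lower on day 6.

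T-lineage transcripts fell more often than they rose. Of 35 genes of T-lineage identity, 12 fell and 3 rose (median -0.14), against 6.75% and 5.04% of all genes tested. Leaving out replicate 2 of day 6 gave 10 that fell and 2 that rose. DNTT (chr10:96304396-96338564), the terminal transferase that adds bases at V(D)J junctions in immature lymphocytes, had 2217, 2093 and 2097 normalized counts in the day 6 libraries, against 5298, 5189 and 5276 in the day 3 libraries. It was 2.46-fold lower on day 6 (log2 difference -1.30, SE 0.05, adjusted p = 2.04e-15), with a narrow spread in both groups. At 100% its day difference was -0.08 (SE 0.056), and the difference of day effects was -1.22, SE 0.075, adjusted p = 4.56e-11. PTCRA, the alpha chain of the pre-T-cell receptor, had 33.9, 18.3 and 35.6 normalized counts in the day 6 libraries, against 88.8, 136 and 128 in the day 3 libraries (log2 difference -2.0, SE 0.31, adjusted p = 7.91e-05). TRBC1, the constant region of the receptor's beta chain, averaged 7846 ± 140.4 on day 6 and 13179 ± 523 on day 3 (SD, n = 3 each; log2 difference -0.75, SE 0.049, adjusted p = 3.3e-10). CD1B, a lipid-presenting molecule of cortical thymocytes (log2 -0.53, adjusted p = 3.93e-05), and RAG2, of the V(D)J recombinase (log2 -0.55, adjusted p = 0.00128), fell as well. RAG1, the other subunit, was at -0.20 (adjusted p = 0.27), and CD3E, of the receptor's signalling complex, at -0.01 (adjusted p = 0.953). BCL11B, a transcription factor of T-cell commitment, rose, with 5461, 5748 and 5440.2 normalized counts in the day 6 libraries, against 3781, 4340.3 and 3649.9 in the day 3 libraries (log2 difference 0.50, SE 0.06, adjusted p = 3e-06). TAL1, the leukaemia factor that Jurkat cells overexpress, rose too (log2 0.40, adjusted p = 0.000113). Of 12 tested NOTCH targets, 3 rose and 3 fell, against 5.04% and 6.75% of all genes tested. The count that rose was 1 without replicate 2 of day 6.

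A few immediate early genes, which growth factor and antigen receptor signals induce through ERK, fell. Of 25 T-cell activation and immediate early genes, 4 fell and 2 rose, against 6.75% and 5.04% of all genes tested. A positive log2 difference was seen in 16 of the 25 (median 0.16). EGR1 (chr5:138465490-138469315), a transcription factor, had 712, 651 and 1223 normalized counts in the day 6 libraries, against 2093, 1978 and 2191 in the day 3 libraries (log2 difference -1.33, SE 0.16, adjusted p = 1.71e-05); replicate 3 of day 6 was the highest of its group and still below all of day 3. The phosphatases DUSP2 (log2 -0.93, adjusted p = 4.09e-05) and DUSP6 (log2 -0.85, adjusted p = 0.00111), which switch ERK off, and CD69, an early activation antigen (log2 -0.86, adjusted p = 0.000413), fell without overlap. At 12.5% EGR1 averaged 1494 ± 82.3 on day 6 and 1153 ± 60.7 on day 3 (SD, n = 2 and 3). The day effect at 25% minus that at 12.5% was -1.71, SE 0.24, adjusted p = 0.00221 by limma. With the library number modulo 8 as a term it was -1.72 with an adjusted p of 0.106. EGR1 was also lower on day 6 at 50% (log2 -1.62, SE 0.16) and at 100% (log2 -2.08, SE 0.18). So were DUSP2 (log2 -1.54 and -1.84) and DUSP6 (log2 -0.55 and -0.91). FOS was at 0.16 (adjusted p = 0.869) and JUN at 0.01 (adjusted p = 0.995). The FOS values rested on replicate 3 of day 6, with 133, 83.5 and 370 normalized counts on day 6, against 113, 144 and 178 on day 3. MYC, a growth factor target and regulator, had 3776, 3477 and 3614 normalized counts in the day 6 libraries, against 3262, 2928 and 2795 in the day 3 libraries (log2 difference 0.28, SE 0.072, adjusted p = 0.0115); it did not pass without replicate 3 of day 3 (adjusted p = 0.0827) or replicate 1 of day 6 (0.0512). NR4A2, an orphan nuclear receptor, also passed, but its values were low: 7.45, 7.2 and 50.9 normalized counts in the day 6 libraries, against 5.07, 0 and 4.96 in the day 3 libraries. It did not pass without replicate 3 of day 6 (log2 1.33, adjusted p = 0.293), without replicate 2 of day 3 (log2 1.35, adjusted p = 0.273) or with the replicate block (adjusted p = 0.0598).

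Genes tied to FOXO factors and quiescence rose more often than they fell. Of the 20 on the list, 10 rose and 1 fell (median 0.23), against 5.04% and 6.75% of all genes tested. Without replicate 2 of day 6, 6 rose. KLF2 (chr19:16324817-16327874), a transcription factor of resting T cells, had 1438, 974 and 1274 normalized counts in the day 6 libraries, against 489, 499.9 and 391 in the day 3 libraries (log2 difference 1.40, SE 0.14, adjusted p = 5.56e-07). SESN3, a FOXO target that restrains mTORC1, averaged 835 ± 42.8 on day 6 and 482 ± 13.7 on day 3 (SD, n = 3 each; log2 difference 0.79, SE 0.099, adjusted p = 5.85e-06). CCNG2, a cyclin of cells leaving the cycle, rose (log2 0.71, adjusted p = 5.72e-05). TXNIP (chr1:145992435-145996600), an arrestin-fold protein that limits glucose uptake, had 12889, 12642 and 12844 normalized counts in the day 6 libraries, against 8791, 8873 and 9197 in the day 3 libraries (log2 difference 0.51, SE 0.085, adjusted p = 0.00017). ARRDC3 (chr5:91368724-91383359), a related arrestin-fold protein, went the other way, with 1117, 1038 and 1160.2 normalized counts in the day 6 libraries, against 2316, 2569.5 and 2231 in the day 3 libraries (log2 difference -1.10, SE 0.092, adjusted p = 1.64e-08). ARRDC4, another member of this family, averaged 369 ± 33.5 on day 6 and 371 ± 13.8 on day 3 (SD, n = 3 each; adjusted p = 0.985). Between levels, the day effect on TXNIP at 25% minus that at 12.5% was 0.80, SE 0.13, adjusted p = 0.00221 and that on ARRDC3 -1.17, SE 0.14, adjusted p = 0.000156. With the library number modulo 8 as a term these were 0.72 (adjusted p = 0.141) and -1.08 (adjusted p = 0.0640).

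In the remaining lists most members did not pass. Over all genes tested 5.04% rose and 6.75% fell. Of 20 p53 targets 3 rose and 1 fell, of 16 genes of the BCL2 family 2 rose and 3 fell, of 30 autophagy and lysosome genes 1 rose and 3 fell, of 32 interferon-stimulated genes 1 rose and 1 fell, and of 18 NRF2 and redox genes 1 rose and 2 fell. Without replicate 2 of day 6, 2 p53 targets rose and 0 fell, 2 BCL2 family genes rose and 4 fell, 1 autophagy and lysosome gene rose and 2 fell, and 1 NRF2 and redox gene rose and 1 fell. Without replicate 1 of day 3, 1 p53 target and 0 BCL2 family genes rose. In that fit 0 genes of the autophagy and of the NRF2 list fell. PMAIP1, which codes the pro-apoptotic NOXA, was at -0.49 (adjusted p = 0.000232), and BMF, another pro-apoptotic member, at 0.45 (adjusted p = 0.0173). BMF did not pass without replicate 1 or 3 of day 3 or replicate 1 of day 6 (adjusted p = 0.109, 0.0825 and 0.0903). The p53 list is named for a regulator of its genes, and p53 activity in these cells was not tested. CDKN1A, an inhibitor of cyclin-dependent kinases, had 141, 139.6 and 334 normalized counts in the day 6 libraries, against 277, 241 and 279 in the day 3 libraries. Its groups overlapped and the difference did not pass limma's test (adjusted p = 0.252). Of 18 host transcripts of small nucleolar RNAs 6 fell, or 5 without replicate 2 of day 6, among them GAS5, with 7403, 5287 and 6120.1 normalized counts in the day 6 libraries, against 9050.1, 8403 and 8543 in the day 3 libraries (log2 difference -0.48, SE 0.086, adjusted p = 0.000474).

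By size of change alone, the 12 largest falls ran from -2.67 to -1.15 and the 12 largest rises from 1.25 to 1.91 (log2), among genes averaging at least 50 in 1 group whose libraries did not overlap and whose call held without replicate 2 of day 6. Beside EGR1, DNTT and PTCRA, already described, FXYD2 (chr11:117800844-117828698), a regulator of the sodium pump, had 114, 152 and 124 normalized counts in the day 6 libraries, against 547, 473 and 506 in the day 3 libraries (log2 difference -1.97, SE 0.14, adjusted p = 1.01e-09). SDK2, a cell adhesion protein, had 7.36, 18.3 and 22 normalized counts in the day 6 libraries, against 90.2, 72.9 and 141 in the day 3 libraries (log2 difference -2.67, SE 0.71, adjusted p = 0.0191), and did not pass without replicate 1 or 3 of day 3 or replicate 1 of day 6 (adjusted p = 0.0536, 0.0813 and 0.085). C9, a complement component, averaged 45.3 ± 14.7 on day 6 and 119 ± 35.6 on day 3 (SD, n = 3 each; log2 difference -1.38, SE 0.27, adjusted p = 0.00114). SPRY4, an inhibitor of receptor kinase signalling (log2 -1.31, adjusted p = 0.00715), did not pass without replicate 3 of day 6 (adjusted p = 0.0607). COBLL1, a cordon-bleu-like protein (log2 -1.20, adjusted p = 0.0072), did not pass without replicate 2 of day 3 (adjusted p = 0.0513). The remaining falls were the non-coding LINC01226, LINC02611 and PANK2-AS1, an antisense transcript that cannot be told apart from its partner if strand was not used in counting, and ALS2CL.

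Among the largest rises, MYCN (chr2:15940564-15947007), a MYC-family transcription factor, had 275, 349 and 303 normalized counts in the day 6 libraries, against 108, 123 and 99.5 in the day 3 libraries (log2 difference 1.48, SE 0.16, adjusted p = 1.02e-06). At 100% its day difference was 0.80 (SE 0.18). LINC01355, a non-coding RNA on chromosome 1, had 154, 118 and 137 normalized counts in the day 6 libraries, against 43.5, 53 and 19 in the day 3 libraries (log2 difference 1.91, SE 0.36, adjusted p = 0.000694). Zinc finger genes gave 3 of the 12: ZNF566 (log2 1.77, adjusted p = 0.00288), ZNF823 (log2 1.30, adjusted p = 0.0013) and ZNF484 (log2 1.26, adjusted p = 0.00339). FGF13, an intracellular FGF-like protein that binds sodium channels, had 199, 359 and 171 normalized counts in the day 6 libraries, against 78.9, 134 and 84.2 in the day 3 libraries (log2 difference 1.25, SE 0.25, adjusted p = 0.00114), with replicate 2 of day 6 the highest. KIF26B, a kinesin-like protein, averaged 198 ± 44.4 on day 6 and 74.1 ± 9.6 on day 3 (SD, n = 3 each; log2 difference 1.38, SE 0.32, adjusted p = 0.00397). CLEC18B, a lectin with near-identical neighbours, did not pass without replicate 1 of day 3 (adjusted p = 0.109) or replicate 3 of day 3 (0.0844). The other members of the 12 were CRIP2, a LIM domain protein, with H2BC5, DNAJB4 and KLF2.

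Few genes passed the test of a day effect at 25% different from that at 12.5%, where day 6 had 2 libraries. There were 102 (0.444%), 85 of them higher and 17 lower, with 46 and 23 under total-sum scaling and 47 and 21 under quantile normalization. An unadjusted p under 0.05 by limma was reached by 2527 of the 22994 genes tested, so the small count does not show that the other day effects were equal. With the library number modulo 8 as a term 0 passed by limma, the smallest adjusted p was 0.0640 and 1455 genes had an unadjusted p under 0.05. The count ran from 33 without replicate 1 of 12.5% on day 6 to 238 without replicate 3 of 25% on day 6, and was 35, 62, 67 and 65 without replicate 2 of 12.5% on day 6, replicate 2 of 25% on day 3, and replicates 1 and 2 of 25% on day 6. PIMREG, a regulator of mitosis, had 608, 487 and 476 normalized counts in the day 6 libraries, against 349.9, 326 and 317 in the day 3 libraries at 25%, and a difference of day effects of 0.93, SE 0.19, adjusted p = 0.0242. UCP2, a mitochondrial carrier, averaged 1926 ± 119 on day 6 and 2639 ± 134 on day 3 at 25% (SD, n = 3 each) and 1724 ± 8.44 on day 6 and 1614 ± 67 on day 3 at 12.5% (n = 2 and 3), a difference of -0.55, SE 0.11, adjusted p = 0.011. ALDH1A2, which makes retinoic acid, fell at 25% (log2 -0.80, adjusted p = 1.29e-09) and more than at 12.5% (difference -0.44, SE 0.087, adjusted p = 0.0125). Without replicate 1 or 2 of 12.5% on day 6 these differences did not pass, with adjusted p of 0.158 and 0.107 for PIMREG, 0.0908 and 0.0735 for UCP2 and 0.0861 and 0.101 for ALDH1A2. PIMREG also did not pass without 5 other single libraries (adjusted p from 0.0617 to 0.0815).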

How the data were processed

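Libraries of Jurkat RNA were strand-specific, per the labels' protocols. Per the submitters' processing notes, the authors used FastQC 0.11.9, kallisto 0.50.1 and DESeq2 1.44.0 with GRCh38; no source used here gives the role of each tool, the annotation or the use of strand in counting. The authors deposited a normalized signal per gene, that is counts scaled by size factors, for 36755 genes and 25 libraries. Of the low values, 51.1% to 75.3% per library came out as whole reads (tolerance 0.05), so no count model was run and depth is unknown. Where reads were shared among near-identical copies, values of such genes are uncertain.

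The 22994 genes that reached 10 in 2 or more libraries were fitted as log2(value + 1) with limma 3.58.1 (R 4.3.3, statmod 1.5.0): 9 group means over all 25 libraries, with an intensity trend and robust moderation. P-values were adjusted by Benjamini-Hochberg within each comparison. Genes with an adjusted p under 0.05 were called, as higher ("rose") or lower ("fell"). On this scale the change of a gene with low values is understated. The scripts were tested on simulated data. Lists of genes (28, with 8 of cell type markers) are described by counts and medians, without a set test. Genes were named by rule: the 12 largest rises and falls, the 4 called members of each list with the smallest p, 6 in each direction per difference of day effects, and a set followed throughout; other members were picked after their values were seen. Some genes of that set are not reported here. Members and lists were chosen with earlier results of these data known. Alternatives were pseudocounts of 0.5 and 10, no filter or a filter of 50, total-sum and quantile scaling, unmoderated variance, a replicate block, the library number modulo 8, the compared groups alone and leaving out each library; list counts under the last 2 kinds were added after the data had been seen. Coordinates are from GENCODE 29 (GRCh38, counted from 1), which matched 33619 names. The plots were drawn with matplotlib 3.10.9 in Python 3.11.15.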

Additional observations from a re-analysis of the deposited data

Results flagged for a closer look

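The results given here are those whose day effect at 25% histidine differed from the day effect at another level, by limma's test of that difference with a Benjamini-Hochberg adjusted p under 0.05. Each value is the log2 day effect at 25% minus that at the other level. Against 100%, the cytosolic heat shock genes had 3.14 for DNAJB4, 2.03 for HSPA8, 1.9 for BAG3, 2.84 for HSPA1A, 5.10 for HSPA1B, 4.76 for HSPA6 and 3.10 for DNAJB1. Genes of cholesterol synthesis and uptake had 1.78 for HMGCS1, 0.94 for INSIG1 and 1.02 for SQLE. At 100% these genes were high on day 3, for example DNAJB1 with 2596 ± 421 on day 6 and 24182 ± 369 on day 3 (SD, n = 3 and 2). Genes of the amino acid and endoplasmic reticulum stress responses had -1.06 for DDIT3, -0.71 for ASNS, -1.92 for TRIB3, -1.01 for CALR and -1.47 for MANF. Mitosis genes, with the spindle protein FAM83D, had 0.70 for TOP2A, 0.90 for MKI67 and 1.85 for FAM83D. Single genes of other lists had -0.59 for GAS5, 0.73 for MYC, 1.17 for TXNIP, 0.40 for FTH1 and 2.16 for NR4A1. Among genes averaging at least 50 in 1 group, whose 25% libraries did not overlap between the days and whose call held without replicate 2 of day 6 at 25%, further genes with low values were ST8SIA6, a sialyltransferase, BEST1, a chloride channel, OTUD7A, a deubiquitinase, ACAD11, an acyl-CoA dehydrogenase, and SPATA6, with -2.38 for ST8SIA6, -1.59 for BEST1, -1.57 for OTUD7A, -1.52 for ACAD11 and -1.50 for SPATA6. With the library number modulo 8 as a term, 4 of these differences from 100% did not pass, those of BEST1 (adjusted p = 0.0536), OTUD7A (0.103), ACAD11 (0.177) and SPATA6 (0.141). Without replicate 3 of 100% on day 3, ACAD11 was at -0.81 (adjusted p = 0.163) and SPATA6 at -1.52 (0.0531), and without replicate 1 SPATA6 was at -1.48 (0.0506). FTH1 did not pass under quantile normalization (0.29, adjusted p = 0.0638).

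Against 12.5%, mitosis genes had 0.88 for KIF20A, 0.49 for TOP2A, 0.87 for PLK1 and 0.93 for PIMREG. Other genes with a higher day effect at 25% had 0.92 for DDIT3, 0.85 for HSPA8, 0.80 for TXNIP and 0.85 for TXNDC15. Those with a lower one had -2.71 for LINC02611, -1.71 for EGR1, -1.17 for ARRDC3, -1.65 for ARPP21-AS1, -0.55 for UCP2 and -0.44 for ALDH1A2. ARPP21-AS1 is an antisense transcript, which cannot be told apart from its partner if strand was not used in counting. None of the differences from 12.5% passed with the library number modulo 8 as a term, where 1455 genes had an unadjusted p under 0.05 by limma.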

How the results depend on the processing

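Leaving out 1 library at a time, the day difference at 25% was called for 1738 to 2490 genes (773 to 1004 higher and 947 to 1486 lower), the difference from the day effect at 100% for 654 to 1057 (335 to 656 and 319 to 479) and that from 12.5% for 33 to 238 (30 to 179 and 3 to 59). Where this left 1 library at 100% on day 3 or at 12.5% on day 6, that library was assumed to vary like the other groups. In a fit of the compared groups alone, 1569 genes were called for the day difference (678 higher and 891 lower), 409 were higher than at 100%, and 60 differed from 12.5% (56 and 4). With the library number modulo 8 as a term, 407 differed from 100% (234 and 173) and 0 from 12.5% (0 and 0). Without trend or robust moderation 32 differed from 12.5% (29 and 3), and with no filter 11 were lower than at 12.5%. Total-sum scaling gave 849 lower than at 100% and 46 higher than at 12.5%, and quantile normalization 47 higher than at 12.5%. The cause of these changes was not tested.

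The replicate numbers did not pair the libraries: deviations from the group means of day 6 and day 3 libraries with the same number correlated at -0.011, -0.0084 and 0.021 across genes. No day 6 library correlated best with the day 3 library of its own number. With the replicate block the counts were 2613 (1127 higher and 1486 lower), 1092 (624 and 468) and 96 (82 and 14).

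Of 139 genes named by rule and called in the day difference, 107 kept their call under all alternatives that tested them. Some called genes were named after their values had been seen and are outside this count. Of these, PHGDH, BMF, HSPD1, NR4A2, SLC7A1, H2BC12, ETV5, SPRED2, ADSL, CAD, HPRT1 and PRPS1 lost their call under at least 1 alternative. The sign turned under some alternative in 9 named genes that were not called. Leaving out 1 library gave log2 differences of -0.0525 to 0.0010 for SQLE, -0.6076 to 0.2408 for HSPA1A, -0.7813 to 0.0051 for HSPA6, -0.0807 to 0.0465 for ARRDC4, -0.0229 to 0.0189 for CD3E, -0.0756 to 2.8235 for TERT, -0.0099 to 0.1124 for SLC7A11 and -0.1130 to 0.0685 for MANF. Total-sum scaling gave 0.0097 for ARRDC4 and 0.0138 for CD3E, and quantile normalization 0.0781 for CD3E and 0.0312 for FTH1. The median of the NOTCH targets was 0.13, and between -0.1008 and 0.1677 with 1 library left out. The depth of the libraries is unknown, so counting error could not be separated from the spread between replicates, and low values such as those of the histone genes carry the widest errors.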

Other observations

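Zinc finger genes rose more often than they fell. Of 482 tested genes whose symbol starts with ZNF, a group chosen after the values had been seen, 109 rose and 7 fell, against 5.04% and 6.75% of all genes tested, with a median log2 difference of 0.31; without replicate 2 of day 6, 99 rose and 5 fell. Most of these genes code DNA-binding proteins of the C2H2 family. The median day difference of the ZNF genes was 0.20 at 12.5% histidine, 0.09 at 50% and 0.12 at 100%. Of the 482, 23 had a higher and 1 a lower day effect at 25% than at 100%, against 2.71% and 2.01% of all genes tested.

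Targets and feedback inhibitors of ERK signalling were 20 genes also chosen after the values had been seen. Of these, 6 fell and 0 rose, against 6.75% and 5.04% of all genes tested, with a median of -0.04. Because of that choice the count is a description alone. A positive log2 difference was seen in 10 and a negative one in 10. Some of the positive ones came with a high replicate 3 of day 6. In the day 6 libraries EGR2 had 23.9, 30.4 and 176 normalized counts, DUSP4 131, 171 and 490, and PHLDA1 57.6, 89.1 and 212. Replicate 1 or 2 was the highest for DUSP1, DUSP6, SPRY1, SPRY2, SPRY4, SPRED1, SPRED2 and ETV5. Without replicate 2 of day 6, 5 fell. Those that fell were EGR1, DUSP2, DUSP6, SPRY4, SPRED2 and ETV5. ETV5, an ETS factor, had 110.3, 169 and 132 normalized counts in the day 6 libraries, against 209 and 199 in replicates 1 and 2 of day 3 and 229 in replicate 3 (adjusted p = 0.0072 by limma). SPRED2, an inhibitor of RAS signalling, had 964, 738 and 845 on day 6, against 1398, 1238 and 1093 on day 3 (adjusted p = 0.00755), and did not pass without replicate 2 of day 6 (adjusted p = 0.0514) or replicate 1 of day 3 (0.0583). ETV5 did not pass without replicate 1 of day 6 (adjusted p = 0.0549). At 12.5% the median day difference of the 20 genes was 0.06, at 50% -0.66 and at 100% -0.90.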
